A study of Caenorhabditis elegans with 6 samples.

Results

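The 3 control pools of QR neuroblast descendants are described here, from the 6 samples of a study of canonical Wnt signalling in the nematode Caenorhabditis elegans. They were chosen by their labels, as the pools without the activated β-catenin transgene, and each held 2000 cells. The larvae carried mab-5(gk670); huIs166; ayIs9 and were in the first stage, fed for 7 hours after arrest. All 6 samples share the mab-5 allele, so the pools are a baseline for a mab-5 mutant and not for the wild type. The other 3 samples, pools of QR descendants that produce an N-terminally truncated BAR-1, were not used for any value below. Nothing in the labels says that the pools came from separate cultures, so the spread between them may be partly technical.

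QR is the right Q neuroblast, which is born in the posterior lateral epidermis and migrates towards the head while it divides. Its lineage gives the oxygen-sensing neuron AQR, the touch neuron AVM and the interneuron SDQR, and sister cells that die. Wnt proteins acting through Frizzled receptors steer these migrations, and the Hox gene lin-39 promotes the anterior migration of QR descendants. The proneural factor LIN-32 and the POU homeodomain factor UNC-86 act early in the specification of these neurons.

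Polyadenylated RNA was counted at transcript 3′ ends by CEL-seq, in which each molecule carries a random identifier. The deposited values are estimated numbers of transcripts, corrected for identifiers that meet by chance among 256 possible ones. The pools held 154785, 254362 and 68431 estimated transcripts, with 7861, 8110 and 6223 genes detected. Pool 2 was therefore 3.72 times as deep as pool 3. Levels are estimated transcripts per 1000000 of a pool's total (CPM), always for pools 1, 2 and 3 in that order, and a spread after ± is the SD over these 3 pools (n = 3). One transcript was worth 6.46, 3.93 and 14.6 CPM, and 3 transcripts were worth 19.4, 11.8 and 43.8 CPM. Each molecule is counted once at its end, so a level in CPM counts molecules and needs no division by gene length. A gene that has used every identifier is set to 1597 transcripts, a ceiling that 4 genes reached in pool 2 and none in pools 1 and 3.

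Of 14700 genes in the table, 5462 (37.2%) had at least 1 transcript in every pool, 9476 had at least 1 in some pool, and 5224 had none in any. The mean level was at least 100 CPM for 1913 genes and at least 1000 CPM for 178. Genes detected in every pool had a median level of 63.9 CPM. The highest 10 genes held 6.06% of all transcripts, the highest 100 held 26.6% and the highest 500 held 55.4%. Counting noise differs widely over this range, so the spread of a gene between pools is also given as a variance ratio, the variance observed between pools over the variance that counting molecules alone would give. A ratio of 1 is what counting alone gives on average. The ratio is skewed over so few pools, so the median that counting alone gives lies below 1.

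The markers used to check the label were 5 genes of the Q lineage, and all 5 were detected in every pool, as were 37.2% of all genes. The POU homeobox gene unc-86 was at 1279, 1132 and 1666 CPM, and the Hox gene lin-39, which promotes anterior migration of QR descendants, was at 820.5, 822 and 1695 CPM. Both stood well above the median detected gene in every pool. The proneural gene lin-32 was at 394, 531 and 336 CPM. The Hox gene mab-5 was at 310.1, 417 and 321 CPM, from 48, 106 and 22 transcripts. The larvae carry a deletion in mab-5, and a 3′ count need not register a deletion elsewhere in the gene, so these transcripts do not test the allele. The fibroblast growth factor gene egl-17, expressed in Q cells and the gene of the ayIs9 reporter, was the lowest of the 5 at 58.1, 106 and 73.1 CPM, from 9, 27 and 5 transcripts. Its mean of 79.1 CPM was near the median of 63.9 CPM for genes detected in every pool, so its detection says little about cell identity.

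The wider set of 17 transcription and fate genes of the Q lineage was detected in full in every pool, against 37.2% of all genes. Their summed level was 15034, 12518 and 19114 CPM, or 15555 ± 3329 CPM on average, and 13 of the 17 had a mean of at least 100 CPM. The gene egl-46 alone held 29.3% of the sum. Most members did not follow the order of the sum, since 9 of the 17 were highest in pool 2, where the sum was lowest. Another 5 were highest in pool 3 and 3 in pool 1. Among all genes detected in every pool, 36.1% were highest in pool 2. The median member was at 469 CPM, against 63.9 CPM for all genes detected in every pool, which is a description since the set was chosen for this lineage. One listed gene, ceh-20, was not analysed here. Levels within the set ran from 55.4 to 4559 CPM.

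Highest in the set was egl-46, which encodes a zinc finger factor of the touch and FLP neuron fates and of cell cycle exit in the Q lineage. It was at 4484, 2925 and 6269 CPM and ranked 7th of all genes by its mean of 4559 ± 1673 CPM. Pool 3 was highest and pool 2 lowest, and the exact 95% counting intervals of 3740.3 to 5359, 2423 to 3522 and 5326 to 7313 CPM did not overlap between pools 2 and 1 or 2 and 3, and barely met between pools 1 and 3. The variance ratio was 31.8. Its partner in the touch neuron pathway, the TEA domain gene egl-44, was lower by more than an order of magnitude at 226, 208 and 190.0 CPM. Both genes were thus present in every pool at very different levels.

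The SOX gene egl-13, which maintains the fate of the oxygen-sensing neurons that include AQR, was at 2668, 1867 and 3595 CPM with the same order of pools as egl-46. Its mean was 2710.2 ± 864 CPM. The Meis-family gene unc-62, a Hox cofactor, was the steadiest of the abundant members at 1369.6, 1565 and 1549 CPM, with a variance ratio of 0.736. The winged-helix gene ham-1, which acts in the asymmetric divisions of this lineage, was at 1473, 696 and 1344 CPM and was lowest in pool 2. For lin-39 the pools split differently, since pools 1 and 2 were nearly equal and pool 3 was about double them.

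Other members had means between 100 and 1000 CPM. The aryl hydrocarbon receptor gene ahr-1, which acts in the specification of AVM and AQR, was at 724, 936 and 672 CPM. The spalt-like gene sem-4 was at 401, 511 and 497 CPM, and hlh-2, the common partner of proneural factors such as LIN-32, was at 426, 354 and 628 CPM. The kinase gene pig-1, needed for the unequal divisions that produce dying cells, was at 252, 129.7 and 132 CPM, with pool 1 above the other pools. Four-digit levels and levels near 100 CPM therefore both occur among genes known from this lineage.

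The lowest members were close to what a few molecules give in the shallow pool. The zinc finger gene pag-3, which acts in touch neuron and neuroblast fates, was at 45.2, 114 and 73.1 CPM. The proneural gene hlh-14 was at 51.7, 134 and 29.2 CPM, from 8, 34 and 2 transcripts, and its order across pools rests on those 2 molecules in pool 3. The LIM homeobox gene mec-3, which with UNC-86 drives touch neuron genes, was at 51.7, 70.8 and 43.8 CPM, from 8, 18 and 3 transcripts. In bulk pools, fewer cells that express a gene and less RNA per cell cannot be told apart.

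**Figure D1:**
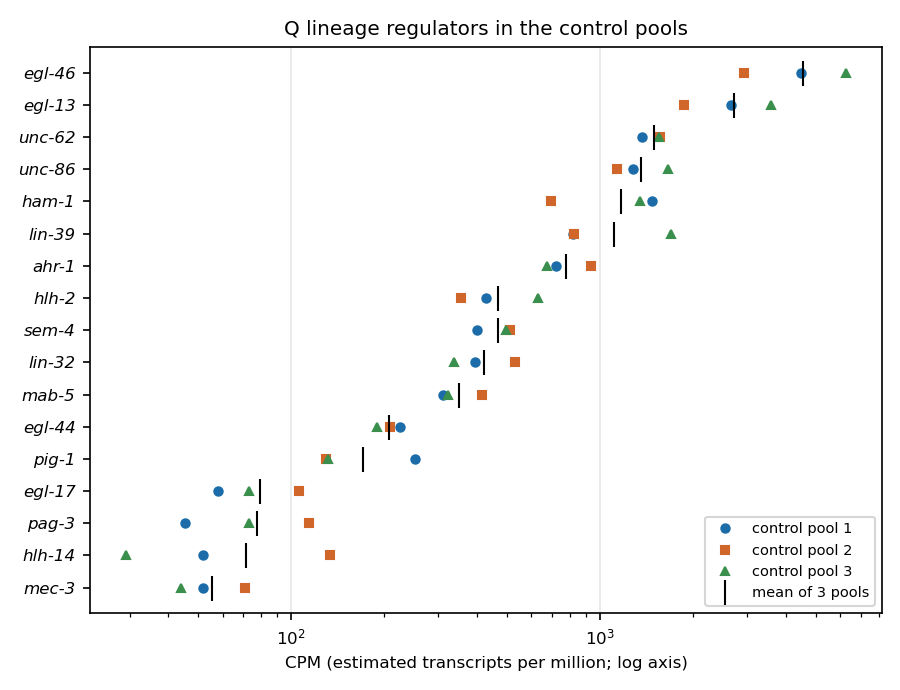
Levels of the 17 Q lineage genes in CPM on a log axis, with 1 point per control pool and a line at the mean over the 3 pools. The genes span from egl-46 at a mean of 4559 CPM to mec-3 at 55.4 CPM, and pool 3 lies highest for egl-46, egl-13 and lin-39.

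Genes of the touch neuron fate were split. The β-tubulin gene mec-7, used in the large microtubules of touch neurons, was at 562, 574 and 759.9 CPM, and the α-tubulin gene mec-12 had a mean of 174 ± 36.8 CPM. The splicing factor gene mec-8 had a mean of 484 ± 94.0 CPM. In contrast, the touch channel genes mec-4 and mec-10 and the extracellular matrix genes mec-5 and mec-9 had no transcript in any pool, and a count of 0 over all pools together allows a level of up to 6.28 CPM. The stomatin gene mec-2, which works with the channel, had a mean of 6.93 CPM. Of 13 touch genes in the table, 6 (46.2%, against 37.2% of all genes) were detected in every pool. The summed level of the list was 1402, 1368 and 1374 CPM.

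The oxygen-sensing list summed to nearly the same level, 1259.8, 1286 and 1198 CPM, with 8 of 12 members in every pool. Of its mean, 50.4% came from gcy-36, a soluble guanylate cyclase gene of AQR, PQR and URX, at 698, 574 and 614 CPM. The related cyclase genes gcy-37, gcy-32 and gcy-35 had means of 194 ± 30.1, 187 ± 56.3 and 117 ± 40.2 CPM. The cyclic nucleotide-gated channel genes tax-4 and tax-2, which act downstream of the cyclases, had means of 23.6 and 2.15 CPM. The neuropeptide receptor gene npr-1 was at 4.77 CPM. Not all cyclase genes were high, since gcy-33, gcy-34 and gcy-31 had means of 37.3, 36.1 and 1.31 CPM. As in the touch list, some members were abundant, while the channel genes and several other members were low. Each of the 12 members had at least 1 transcript in some pool, whereas 4 touch genes had none in any.

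General neuronal and synaptic genes were detected broadly and at moderate levels. Of 35 members, 31 were in every pool and 15 had a mean of at least 100 CPM, with a summed level of 4154, 5457 and 4676 CPM. The β-spectrin gene unc-70 was at 737, 967 and 818 CPM and the synaptobrevin gene snb-1 was at 620.2, 539 and 614 CPM. The SNAP-25 gene ric-4 was at 246, 621 and 365 CPM, highest in pool 2. The ankyrin gene unc-44, the syntaxin gene unc-64 and the vesicle GTPase gene rab-3 had means of 493 ± 105, 246 ± 49.5 and 125 ± 65.3 CPM. The active zone gene unc-10, by comparison, had 2, 3 and 0 transcripts.

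Markers of the transmitter identity of other neurons were almost absent. Their 20 members summed to 51.7, 59.0 and 73.1 CPM, and 9 had no transcript in any pool, among them the tryptophan hydroxylase gene tph-1. The highest, the GABA synthesis gene unc-25, had 3, 3 and 1 transcripts. Neuropeptide precursor genes were detected in every pool for 29 of 137 members (21.2%, against 37.2% of all genes). They were led by flp-5 at 297, 369.6 and 278 CPM and nlp-77 at 271, 322 and 219 CPM. Their sum was 2629, 2225 and 1797 CPM, highest in pool 1 and lowest in pool 3.

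Most of the level of the cilium list came from 1 gene. The intraflagellar transport gene che-2 was at 9174, 6278 and 9542 CPM, among the highest of all genes, and with the set value of pool 2 it held 85.5% of the list's summed level. The other 24 cilium genes together had 1059.5, 1710.2 and 1476 CPM, with the RFX factor gene daf-19, the regulator of ciliary genes, at a mean of 720.4 ± 169 CPM and dyf-6 at 123.1 ± 53.6 CPM. In pool 2 che-2 was at the ceiling, so its level there has a lower bound of 4274 CPM and no upper bound, and the 95% intervals were 6345 to 15252 CPM in pool 1 and 7992 to 11331 CPM in pool 3. Its order against F41C3.5, a gene at the same value in pools 1 and 2 and at 7713 to 10875 CPM in pool 3, is not resolved. In the RefSeq annotation che-2 is the coding gene next to egl-17, the gene of the ayIs9 reporter. Whether transgene transcripts were counted under che-2 was not tested.

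Wnt pathway genes were detected in every pool for 19 of 27 members, with a summed level of 4897, 5681 and 5728 CPM. The TCF factor gene pop-1 led at 885, 1305 and 1198 CPM, followed by the Nemo-like kinase gene lit-1 at 825 ± 66.7 CPM and the casein kinase gene kin-19 at 772 ± 245 CPM. The β-catenin gene bar-1, which acts with POP-1 in the canonical pathway, had 1, 4 and 0 transcripts and so was at the level of single molecules. The other β-catenin genes wrm-1, hmp-2 and sys-1 had means of 162 ± 35.1, 147 ± 69.1 and 141 ± 13.8 CPM.

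Receptors for Wnt proteins differed in level. The Frizzled gene mom-5 had a mean of 370.2 ± 119.6 CPM, the Frizzled gene lin-17 had 182 ± 6.32 CPM, and mig-1, a Frizzled gene that acts in the migration of these cells, was at 90.4, 142 and 117 CPM. The ROR receptor gene cam-1 had a mean of 473 ± 201 CPM, while the Frizzled gene cfz-2 had no transcript in any pool. Downstream, the Dishevelled gene dsh-2 was at 349, 291 and 351 CPM. The Axin-like gene pry-1 and the APC-related gene apr-1 had 149 ± 23.6 and 172 ± 60.7 CPM. In contrast, the kinase gene gsk-3 had 0, 1 and 0 transcripts, and the other Axin-like gene, axl-1, had none in any pool. The Wnt gene cwn-2 had a mean of 199.5 ± 56.7 CPM.

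Genes of migration and guidance formed an evenly spread list. Of 36 members, 31 were in every pool and 23 had a mean of at least 100 CPM, none reaching 1000 CPM. The small GTPase gene cdc-42, which organises cell polarity, was highest at 756, 833 and 1169 CPM. It was followed by the actin-binding gene unc-115 at 726 ± 181 CPM, the syndecan gene sdn-1 at 722 ± 124 CPM and the flamingo cadherin gene fmi-1 at 719 ± 147 CPM. The transmembrane gene mig-13, which promotes anterior migration of QR and its descendants, was at 601, 645 and 818 CPM and was highest in pool 3. The integrin gene pat-3, at 562, 594 and 468 CPM, was lowest there. The netrin receptor gene unc-40 was less steady, at 362, 680.1 and 263 CPM, with pool 2 highest. The Robo gene sax-3 had a mean of 383 ± 109.8 CPM.

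The Q lineage makes cells that die, and the list of cell death genes was led by 1 gene. The BH3-only gene egl-1, whose product starts programmed cell death, was at 988, 908 and 1242 CPM, from 153, 231 and 85 transcripts, and ranked 174th of all genes. It held 50.3% of the list. The caspase activator gene ced-4 had a mean of 127 ± 19.2 CPM and the caspase gene ced-3 had 56.4 ± 4.07 CPM. The Arf regulators cnt-2 and grp-1, which act in the divisions that produce dying Q descendants, had means of 182 ± 105 and 61.6 ± 11.8 CPM. The other BH3-only gene on the list, ced-13, had no transcript in any pool.

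Cell cycle and replication genes were present nearly in full, with 55 of 58 members in every pool and 46 with a mean of at least 100 CPM. Their sum was 19569, 17102 and 17755 CPM. The highest was cki-1, which encodes a cyclin-dependent kinase inhibitor, at 1395, 1159.8 and 2031 CPM. It was accompanied by the mitotic cyclin gene cyb-3 at 1395, 1250.2 and 1315 CPM and the G1 cyclin gene cyd-1 at 1415, 1097 and 1374 CPM. Among replication genes, the ribonucleotide reductase gene rnr-1 was at 1369.6, 888 and 614 CPM, highest in pool 1. The helicase gene mcm-7 was at 827, 771 and 1139.8 CPM, with pool 3 highest and pool 2 lowest as for cki-1. An inhibitor and promoters of division were thus abundant side by side, and pools of 2000 cells do not show whether the same cells carried them.

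The top 25 genes combined housekeeping, chromatin and a few specific genes. Beside che-2 stood F41C3.5, a carboxypeptidase-like gene now named ctsa-1.1, at 9174, 6278 and 9177 CPM, and C47E8.11, at 8024, 6278 and 7336 CPM. Chromatin genes followed, with the HMG box gene hmg-1.1 at 7352, 5583 and 8023 CPM and the linker histone gene his-24 at 5950.2, 6278 and 5188 CPM. The histone variant genes his-72 and htz-1 had means of 4412 ± 640.4 and 3269.8 ± 338 CPM. Translation factor eef-1A.1 was at 5731, 4883 and 7555 CPM. Of these, F41C3.5, C47E8.11 and his-24 were at the ceiling in pool 2, and their levels there are set values. In the annotation, C47E8.11 lies next to the chaperone gene hsp-90, which was not analysed here. Coding genes overlap eef-1A.1, T28D9.1, act-4 and crt-1, so their counts may hold reads of another gene.

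**Figure D2:**
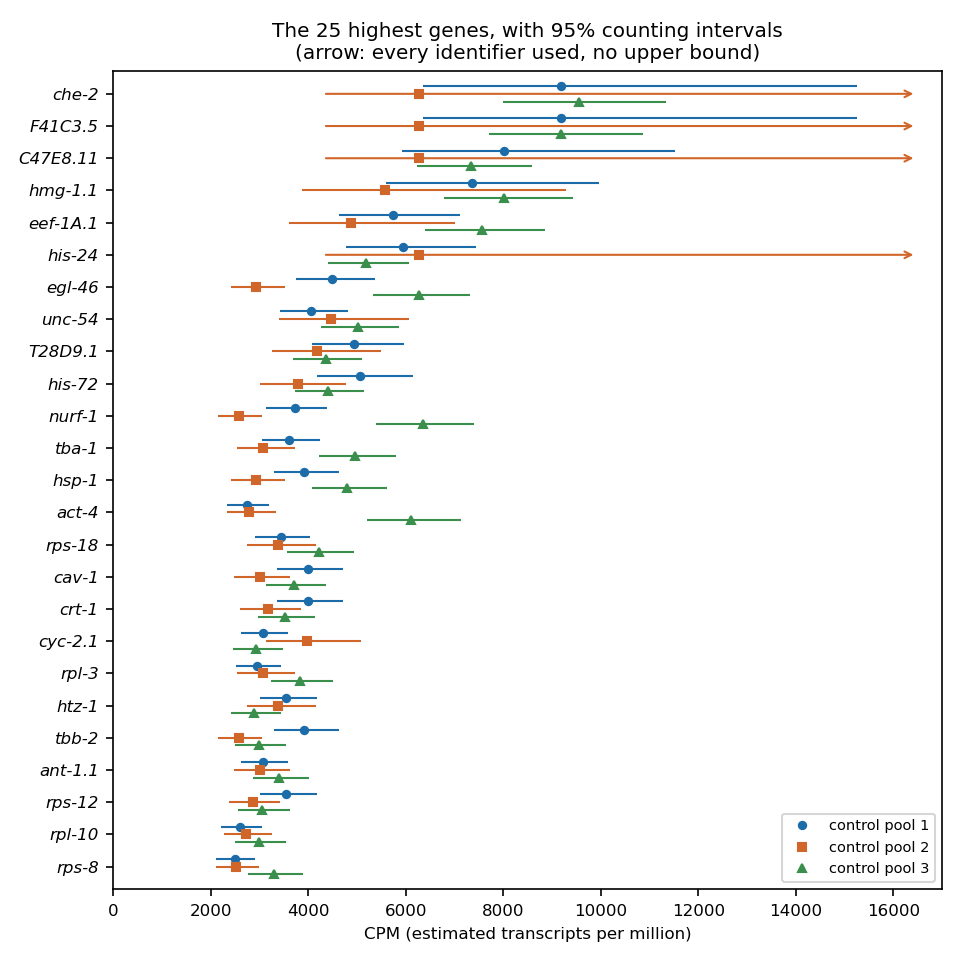
The 25 genes with the highest mean level, in CPM on a linear axis from 0, with 1 point per control pool, bars for the exact 95% counting interval and arrows where no upper bound exists. Only che-2, F41C3.5, C47E8.11 and his-24 reach the ceiling, in pool 2, and act-4 and nurf-1 lie highest in pool 3.

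Cytosolic ribosomal protein genes were 5 of the top 25 and 48 of the top 100. Their summed level was 127738, 141880.0 and 139381 CPM, 13.6% of all transcripts, and 66 of 78 members had a mean of at least 1000 CPM. The highest was rps-18, at 3672 ± 466 CPM, followed by rpl-3 at 3286 ± 474 CPM and rps-12 at 3152 ± 356 CPM. Mitochondrial ribosomal protein genes were far lower, with a summed level of 3102 ± 67.4 CPM over 68 members. For the proteasome and chaperonin, all 38 members were in every pool, at 22809.8 ± 2646 CPM in sum. Oxidative phosphorylation genes summed to 16800.3 ± 674 CPM, led by the cytochrome c gene cyc-2.1 at 3318 ± 563 CPM and the ADP/ATP carrier gene ant-1.1 at 3158 ± 217 CPM. Glycolysis genes summed to 1951 ± 270.2 CPM.

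Actin and tubulin genes summed to 25213 ± 1751 CPM, led by the α-tubulin gene tba-1 at 3879 ± 967 CPM and the β-tubulin gene tbb-2 at 3159 ± 689 CPM. Actin gene act-4 was at 2733, 2791 and 6108 CPM, with pool 3 more than double the others, and the near-identical actin genes act-1, act-2 and act-3 had means of 741 ± 125, 1465 ± 144 and 1135 ± 158 CPM. Counts can be split between such copies. Histone genes were seen in every pool for 15 of 44 members (34.1%, against 37.2% of all genes) and summed to 20615 ± 1709 CPM. Replication-dependent histone transcripts mostly lack the poly(A) tail on which the capture relies, and whether this lowered their counts was not tested.

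Chaperone genes were among the least steady of the housekeeping lists, at 15072, 12919 and 18953 CPM in sum and with a median variance ratio of 5.10 over 15 members. The HSP70 gene hsp-1 had a mean of 3878 ± 935 CPM. The HSP110 gene hsp-110 was at 2345, 1895 and 3829 CPM, highest in pool 3. The small heat shock gene hsp-16.2 was at 1460.1, 1726 and 2367 CPM and hsp-16.41 at 1081 ± 211 CPM, both induced by heat and other stress in the worm. The near-identical HSP70-like genes, F44E5.4 and F44E5.5, went the other way, at 4587, 1443 and 1403 CPM and 4587, 1565 and 1081 CPM, highest in pool 1. The endoplasmic reticulum chaperone gene hsp-3, by contrast, was steady at 1380.0 ± 27.7 CPM. Some other genes of the list were nearly or fully absent. The small heat shock gene hsp-16.48 had 1, 1 and 1 transcripts, and hsp-12.3, hsp-12.6, gst-4 and sod-3 had none in any pool.

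**Figure D3:**
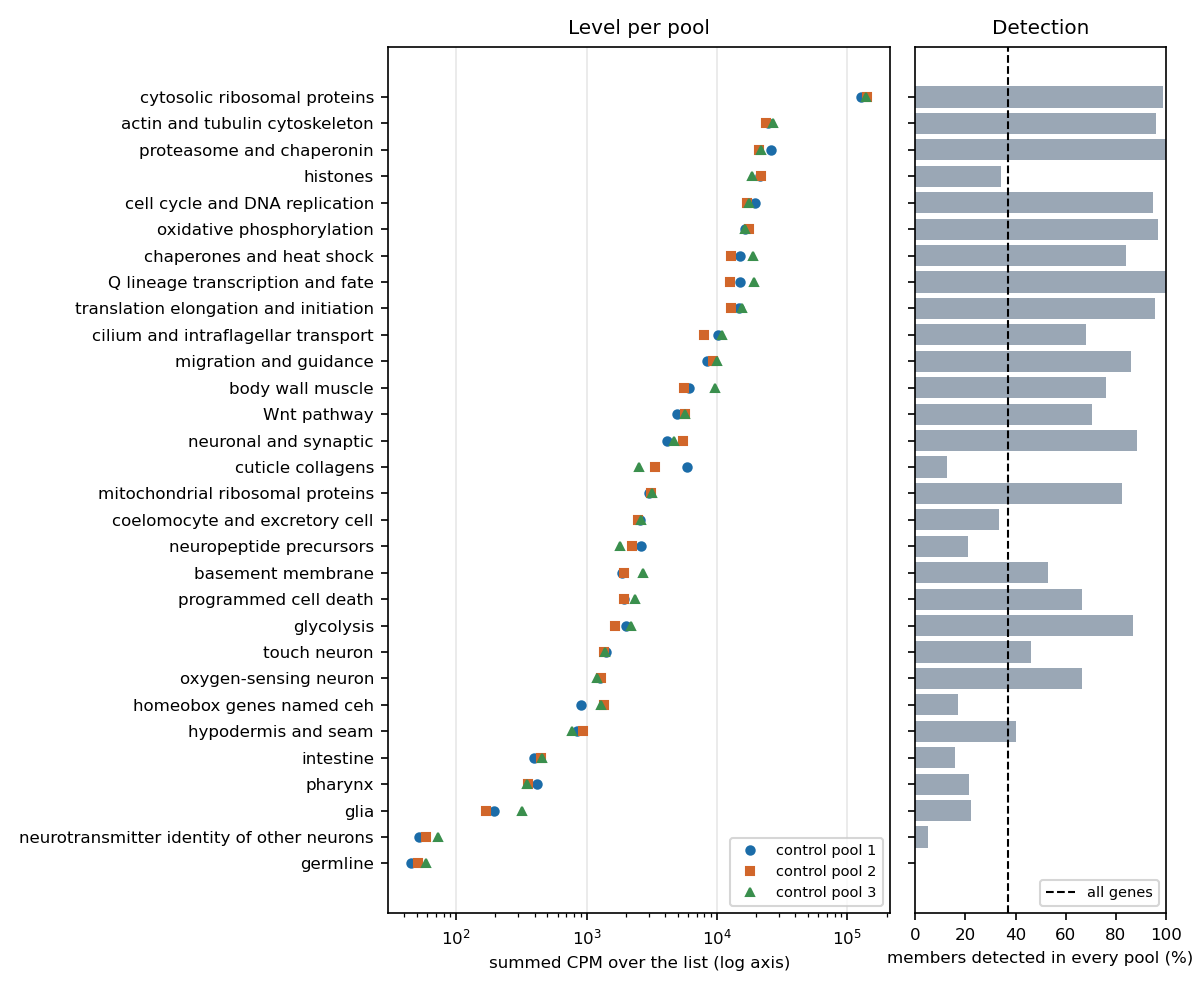
Left, summed level of each gene list in CPM on a log axis, with 1 point per control pool, and right, the percent of its members detected in every pool, with a dashed line at 37.2% for all genes. The cytosolic ribosomal proteins lie highest and the germline and other-neuron transmitter lists lowest, and the pools are farthest apart for cuticle collagens.

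Body wall muscle genes had the highest summed level of the lists for other tissues, and the largest median variance ratio of all lists, at 11.3 over 11 members. Their summed level was 6144, 5575 and 9586 CPM, and the myosin heavy chain gene unc-54 alone was at 4057, 4474 and 5012 CPM, which is 63.6% of it. The other 24 members had 2087, 1101 and 4574 CPM, so pool 3 was about 4 times pool 2. Their mean sum of 2587 CPM was below the 3922 CPM of the cuticle collagens, so the ranking of the muscle list rests on unc-54. Of the 19 members detected in every pool, 17 were highest in pool 3 and 12 were lowest in pool 2, whereas among all genes detected in every pool 35.4% were highest in pool 3 and 27.5% lowest in pool 2. The alkali light chain gene mlc-3 was at 304, 90.4 and 1096 CPM and the troponin C gene pat-10 had a mean of 289.9 ± 205 CPM. The regulatory light chain genes mlc-1 and mlc-2 had means of 204 ± 144 and 219.7 ± 123.3 CPM. The defining factor hlh-1 and unc-98 had no transcript in any pool, and myo-3 had 0, 0 and 1 transcripts.

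For unc-54 the 95% counting intervals were 3410.1 to 4808, 3407 to 6061 and 4262 to 5857 CPM and overlapped between all pools. It used 234, 253 and 189 of the 256 identifiers, so it was nearly saturated in pool 2 and its steadiness between pools is not resolved. Many worm reporter transgenes end in the unc-54 3′ end, and whether the transgenes here were counted under it was not tested. Neither actin act-4 nor muscle light chain mlc-3 was steady, and both were highest in pool 3.

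Cuticle collagens moved in another order. Their summed level was 5918, 3334 and 2513 CPM, and 12 of the 17 members detected in every pool were highest in pool 1, against 28.5% of all genes detected in every pool. The highest was col-166, at 1085, 1085 and 395 CPM. In addition, col-3 at 659, 142 and 73.1 CPM and col-117 at 607, 129.7 and 29.2 CPM were far higher in pool 1 than in pool 3. No transcript was found in any pool for 63 of 136 collagen genes, against 5224 of all 14700 genes. The collagen list and the muscle list therefore did not peak in the same pool.

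**Figure D4:**
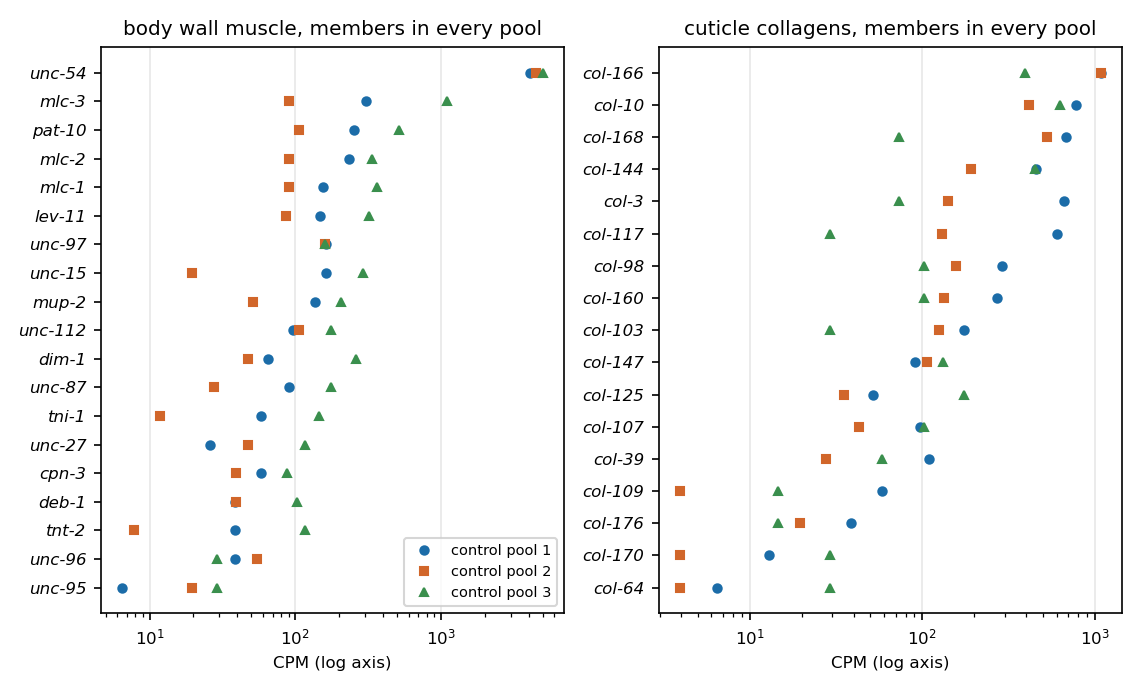
Levels of the 19 muscle and 17 collagen genes detected in every pool, in CPM on log axes, with 1 point per control pool. Most muscle genes are highest in pool 3, and most collagens are highest in pool 1.

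Many defining genes of other tissues were at 0 or at single molecules, while epidermal and seam genes were more mixed. The intestinal list summed to 394, 448 and 453 CPM, and 79.4% of that was erm-1, a membrane linker gene, while elt-2, elt-7 and ges-1 had no transcript in any pool. The pharynx list summed to 419.9, 354 and 351 CPM, mostly from the T-box gene tbx-2, and the pharyngeal factor gene pha-4 had none. Epidermal and seam genes summed to 839.9, 939.6 and 775 CPM, led by the GATA factor gene egl-18 at 269.9 ± 43.1 CPM, with elt-3, ceh-16 and wrt-2 at 0. For glia, lin-26 held 90.8% of 228 ± 81.8 CPM, and ptr-10 was at 0. The coelomocyte and excretory list, at 2544 ± 70.5 CPM, was mostly the proton pump gene vha-1. Germline genes summed to 45.2, 51.1 and 58.5 CPM, with 9 of 18 at 0.

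Basement membrane genes summed to 1861, 1954 and 2689 CPM, led by sdn-1, which is also on the migration list, the dystroglycan gene dgn-1 at 540.2 ± 48.2 CPM and the perlecan gene unc-52 at 402 ± 22.3 CPM. The collagen IV genes emb-9 and let-2 had means of 31.9 ± 12.1 and 46.7 ± 61.3 CPM. Of 58 homeobox genes named ceh, 10 (17.2%, against 37.2% of all genes) were in every pool and 29 were at 0 in all of them. The highest were ceh-44 at 414 ± 88.0 CPM and ceh-38 at 245 ± 95.4 CPM. Whether the pools held cells of these other tissues was not tested.

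Over the 1909 genes with a mean of at least 100 CPM and no value at the ceiling, the median coefficient of variation was 24.1% and the median variance ratio was 1.63. The ratio was below 1 for 658 of these genes (34.5%) and above 3 for 541 (28.3%), with 23 above 20. Counting alone would put most genes below 1, since the ratio is skewed. Across the 5462 genes detected in every pool, Spearman's coefficient was 0.873 between pools 1 and 2, 0.796 between pools 1 and 3 and 0.810 between pools 2 and 3. These points share the gene and the depth of their pools, and genes are not independent replicates. The lower values belong to the shallow pool 3. The common biological coefficient of variation was 0.206 over 1962 genes. It leaves out the noise of simple counts but not the extra noise of nearly saturated identifiers.

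**Figure D5:**
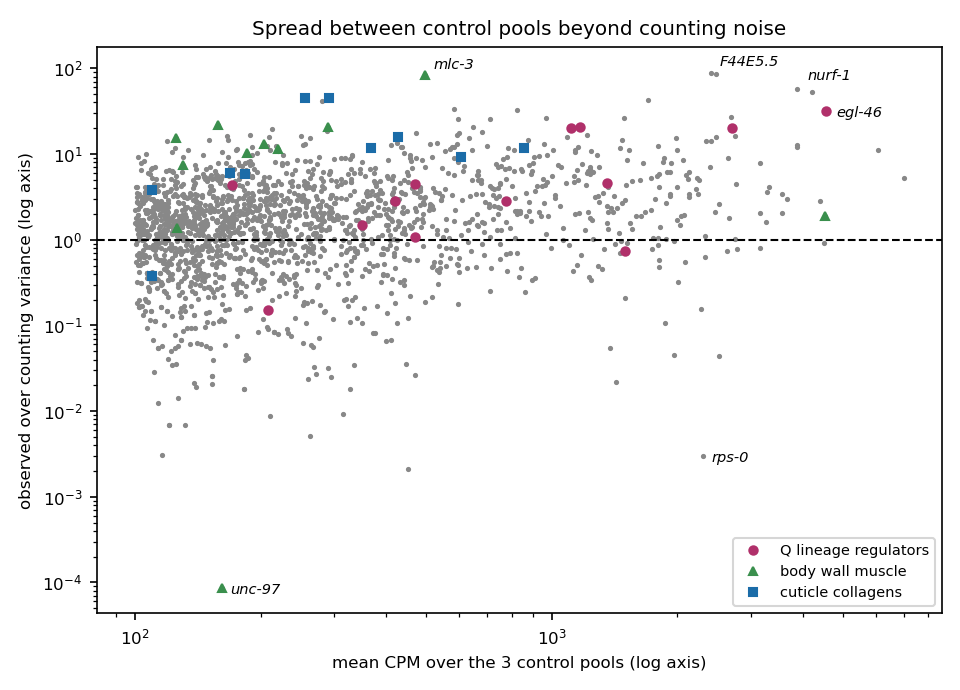
Variance ratio against mean level in CPM, both on log axes, with 1 point per gene of at least 100 CPM. Q lineage, muscle and collagen genes are coloured, and a dashed line marks 1, the mean that counting alone gives. The median gene lies at 1.63, where counting alone gives a median below 1. A minority, led by F44E5.5, F44E5.4 and mlc-3, lies far above that level.

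The largest variance ratios were those of F44E5.5 at 88.96, F44E5.4 at 85.5, mlc-3 at 84.2, act-4 at 57.3, the chromatin remodelling gene nurf-1 at 52.5, col-3 and col-117 at 45.2 and 45.2, the lipid-binding gene far-1 at 42.8, rack-1 at 41.1 and chdp-1 at 33.7. For nurf-1 the pools were at 3721, 2567 and 6342 CPM, highest in pool 3 and lowest in pool 2. The ribosome-associated gene rack-1 was at 291, 27.5 and 526 CPM, with pool 2 far below the others. Of these 10 genes, 5 were HSP70-like, muscle light chain or collagen genes and the other 5 were of other kinds.

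Other genes were level across pools. The LIM gene unc-97, of muscle attachments, was at 162, 161 and 161 CPM, the exon junction gene mag-1 at 452, 448 and 453 CPM and the ribosomal gene rps-0 at 2319, 2299.9 and 2309 CPM. Such closeness is tighter than counting gives on average and was picked from 1909 genes. The remaining 7 of the 10 lowest ratios belonged to sup-37, aip-1, jamp-1, F08G2.7, sel-12, F42G9.1 and rpn-8.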

How the data were processed

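The labels' protocols state CEL-seq barcoding, reverse transcription and in vitro transcription, with CEL-seq2 libraries. The values the authors deposited are estimated counts per gene, unscaled between samples. No aligner, build or annotation is given in the sources used here, so no coordinates are printed. The number of identifiers was inferred from the values, as the power of 2 that makes most of them whole; inverting the correction with 256 gave whole identifiers, within 0.02, for 99.9% or more of the values of each control pool.

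Estimated counts were rounded to whole numbers and scaled to CPM by pool total. Intervals are exact (Clopper-Pearson, 95%) on distinct identifiers, and they and the limit that 3 counts allow cover counting error only. The variance ratio uses the counting variance of the identifiers. The common biological coefficient of variation came from edgeR 4.0.16 (R 4.3.3, TMM, filterByExpr min.count 10, intercept only). On data simulated with known values it came out slightly low, most so at the largest value, so it may understate the spread; the tolerance of that check was widened after a first, tighter limit failed. No hypothesis test was run and no p-value is given.

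Members, markers and gene lists were chosen with earlier results of these data known. Named genes are the Q lineage list, the 25 highest means, up to 6 members per other list, members given as not detected, and the 10 largest and 10 smallest variance ratios at 100 CPM or more; other list members were named after their values were seen. Names and neighbours come from RefSeq (WBcel235): 13132 current symbols, 1303 locus tags and 265 unmatched. Alternatives were TMM and DESeq2 1.42.0 factors, distinct identifiers, a total without ceiling genes, other minimums, and leaving out each pool.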

Additional observations from a re-analysis of the deposited data

How the results depend on the processing

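No paired analysis was possible because only 1 group was used and no result comes from a test. Requiring 3 transcripts in every pool left 3422 genes, against 5462 with 1. At the depth of the shallowest pool, 4665 genes would be expected in every pool. Leaving out 1 pool, which can only raise the count, gave 5635 to 6784. The median coefficient of variation was 27.8% for genes of at least 50 CPM, 18.8% for at least 300 CPM and 34.5% for every gene detected in every pool. With 1 pool left out it was 16.6 to 21.4%. A median SD over fewer pools is lower by construction, so that fall is no check on the spread. The common biological coefficient of variation was 0.193 with min.count 30, 0.251 with no low-count filter, 0.306 as the median of DESeq2 dispersions over genes, and 0.191 to 0.215 with 1 pool left out. TMM, DESeq2 factors and a total without ceiling genes kept all 30 list sums within 1 SD of the value reported. Leaving out 1 of 3 pools cannot move a mean by 1 SD, so it is no check on stability. It gave sums of 2924 to 4626 CPM for cuticle collagens and 5859 to 7865 CPM for body wall muscle.

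Counting distinct identifiers without the correction, which compresses high values by construction, moved 20 of 30 list sums by more than 1 SD. They became, in CPM, 10187 for migration, 1533 for touch, 1429 for oxygen sensing, 5438 for neuronal genes, 77.7 for other-neuron transmitter identity, 4144 for cilium, 2311 for glycolysis, 15132 for oxidative phosphorylation, 10687 for translation, 12412 for chaperones and 19844 for the cytoskeleton. The others were 444 for pharynx, 505 for intestine, 1048 for hypodermis and seam, 2137 for coelomocyte and excretory genes, 65.7 for germline, 102086 for cytosolic and 3891 for mitochondrial ribosomal proteins, 12471 for histones and 2741 for neuropeptides. Of 340 named gene means, 68 moved by more than 1 SD with distinct identifiers and 0 with TMM or DESeq2 factors. Levels under 43.8 CPM rest on fewer than 3 transcripts in pool 3, and the order of the pools is not resolved there.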

Other observations

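Some abundant genes stood on none of the lists and were picked after their values were seen. The water channel gene aqp-2 had a mean of 1996 ± 336 CPM, the polycystin gene pkd-2 had 1784 ± 359 CPM, the immunoglobulin superfamily gene wrk-1 had 1514 ± 117 CPM and the zinc finger homeobox gene zag-1 had 1509 ± 301 CPM (SD, n = 3).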
